A study of Homo sapiens with 4 samples.

Results

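Interferon-stimulated and RNA-sensing genes were followed in a pair of human liver cancer lines transfected with a synthetic microRNA. A list of 48 gene symbols defined them, and 46 had a probe set among the 17687 named genes of the array. STAT2 and TRIM25 were not analysed here. The list was drawn up by gene function, with earlier results of these data known. The mimic groups were Li-7 given a miR-4730 mimic and HEP-G2 given the same mimic, in both cases at 3 nM, with Lipofectamine RNAiMAX, a lipid reagent, added 24 h after the cells were plated. The control groups were Li-7 and HEP-G2 given the negative control oligonucleotide of the same supplier, whose dose the labels do not state. Each of the 4 groups was 1 Affymetrix array of total RNA, without a replicate. Li-7 and HEP-G2 are established human liver cancer lines, kept here in different media with 10% serum, so line and medium cannot be told apart. Untransfected cells were not analysed here, so a response shared by the mimic and the control oligonucleotide would not appear in the differences below.

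RNA from outside the cell, or RNA of unusual form, is recognised in the cytosol by the helicases RIG-I and MDA5 and in endosomes by TLR3. The adaptors behind them activate transcription factors of the IRF family, which switch on type I interferon. Secreted interferon binds its receptor and, through STAT proteins and IRF9, induces a large set of interferon-stimulated genes whose products block viral RNA, translation, entry or release. Short double-stranded RNAs delivered by lipid transfection can set off this pathway, and for this reason its genes are often read as a control for microRNA mimics.

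The transfected RNA carries the mature miR-4730 sequence by its name. It is shown because it is the RNA that differed between the groups. The sources used here do not give the strands of the commercial product. RefSeq (GRCh38.p14) places the mature form at chr17:80419427-80419449 on the plus strand, with a length of 23 bases. Capitals mark the seed, bases 2 to 8, which 1 of 2370 mature human microRNAs in the RefSeq table carries.
hsa-miR-4730: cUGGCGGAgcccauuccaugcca

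Promoters of the listed genes are known for the interferon-stimulated response element. Its core, the letters GAAA, any 2 bases and GAAA again, was searched on both strands, overlapping matches included, over 250 bases before and 50 bases after each RefSeq gene start (GRCh38.p14). Of 35 members with a promoter in the table, 25 held a match (71.4%), against 4.38% of all 27305 genes in it. The palindromic letters TTCNNNGAA, which STAT dimers are known to bind, were in promoters of 11 of the 35 members (31.4%), against 9.38% of all genes. A match describes the letters and does not show a bound site.

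The promoters of 4 members are shown, the first pair being standard reporters of the response and the second pair members with higher values on the mimic arrays. Capitals mark that core on either strand in IFIT1, ISG15 and PARP12 and TTCNNNGAA in IRF9. IFIT1 lies at chr10:89392373-89392672 (plus strand), with 2 matches, the first starting 116 bases before the gene start. ISG15 lies at chr1:1013247-1013546 (plus strand), and its 2 matches overlap. IRF9 lies at chr14:24161015-24161314 (plus strand), with no match to the core in the window and with TTCNNNGAA starting 63 bases before the gene start. PARP12 lies at chr7:140062902-140063201 (minus strand), with 1 match starting 10 bases before the gene start.
IFIT1: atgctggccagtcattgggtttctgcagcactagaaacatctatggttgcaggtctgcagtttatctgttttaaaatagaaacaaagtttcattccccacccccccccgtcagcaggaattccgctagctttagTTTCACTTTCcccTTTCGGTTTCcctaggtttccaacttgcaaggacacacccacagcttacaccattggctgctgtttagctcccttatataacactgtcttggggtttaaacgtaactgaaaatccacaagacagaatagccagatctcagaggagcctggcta
ISG15: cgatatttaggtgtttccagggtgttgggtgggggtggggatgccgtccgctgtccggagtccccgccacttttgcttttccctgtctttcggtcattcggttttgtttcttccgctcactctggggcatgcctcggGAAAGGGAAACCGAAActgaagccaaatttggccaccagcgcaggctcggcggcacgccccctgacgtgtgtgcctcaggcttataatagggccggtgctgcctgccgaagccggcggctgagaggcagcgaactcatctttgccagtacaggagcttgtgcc
IRF9: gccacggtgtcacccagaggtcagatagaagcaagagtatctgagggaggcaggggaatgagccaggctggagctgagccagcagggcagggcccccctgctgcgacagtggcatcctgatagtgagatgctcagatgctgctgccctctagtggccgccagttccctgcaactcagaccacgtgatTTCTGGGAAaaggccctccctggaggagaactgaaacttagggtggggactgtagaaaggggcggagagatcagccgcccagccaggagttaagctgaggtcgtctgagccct
PARP12: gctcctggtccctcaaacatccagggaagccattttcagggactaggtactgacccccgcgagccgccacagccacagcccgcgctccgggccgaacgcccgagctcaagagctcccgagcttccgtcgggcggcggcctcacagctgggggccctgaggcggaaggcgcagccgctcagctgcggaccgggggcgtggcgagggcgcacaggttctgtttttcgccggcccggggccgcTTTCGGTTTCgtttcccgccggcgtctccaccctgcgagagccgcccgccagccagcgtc

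Values are on the deposited log2-like scale, and a difference of 1 is read as 2-fold. A value was called above background when it was brighter than 95% of the 612 negative control probes of the same array. That limit was 7.99 on the Li-7 mimic array, 8.72 on the Li-7 control array, 8.20 on the HEP-G2 mimic array and 8.35 on the HEP-G2 control array. HMGA1, the gene the series names as target, had values of 10.91 with the mimic and 14.93 with the control in Li-7. In HEP-G2 the values were 11.61 with the mimic and 14.79 with the control. The fall passed the test over both lines (adjusted p = 0.0241, limma with Benjamini-Hochberg adjustment). That call was lost after cyclic loess, with an ordinary t statistic and without cell line in the model, settings that called 0 genes lower. Of 11 liver cell markers measured, all lay above the limit on both HEP-G2 arrays, but in Li-7 only the keratins KRT8 and KRT18 did so on both arrays, with SERPINA1 on the mimic array. ALB, AFP, APOA1, APOB, TTR, TF, FGB and GPC3 did not pass it on either Li-7 array. Of 9 immune cell markers, CD68 and LYZ lay above it on every array and PTPRC, the common leukocyte antigen, on none. Summed over the 11 liver markers, the log2-like values were 82.3 with the mimic and 80.4 with the control in Li-7. In HEP-G2 the sums were 169.7 with the mimic and 164.4 with the control. A sum of log2-like values is not an amount of RNA, so the ratio of these sums is not a fold difference. The part of this marker difference in the line differences below was not tested. Each array read bulk RNA of a single cultured line and not of a mixed tissue, so a level is a mean over that line's cells.

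Across the 46 measured members, 14 lay above the background limit on all 4 arrays (30.4%, against 31.4% of all named genes) and 19 on no array (41.3%, against 52.0%). By array, the members above it numbered 24 on the Li-7 mimic array (all genes 42.7%), 19 on the Li-7 control array (36.7%), 21 on the HEP-G2 mimic array (40.0%) and 19 on the HEP-G2 control array (39.4%). The 5 members IRF3, IRF7, OAS2, IFI44L and CXCL10 had means under the filter on low values and were not tested, which left 41 of 46. Probe sets differ in brightness, so a level is set only against the same gene on another array. The plot of all members by array shows these values by role.

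**Figure D1:**
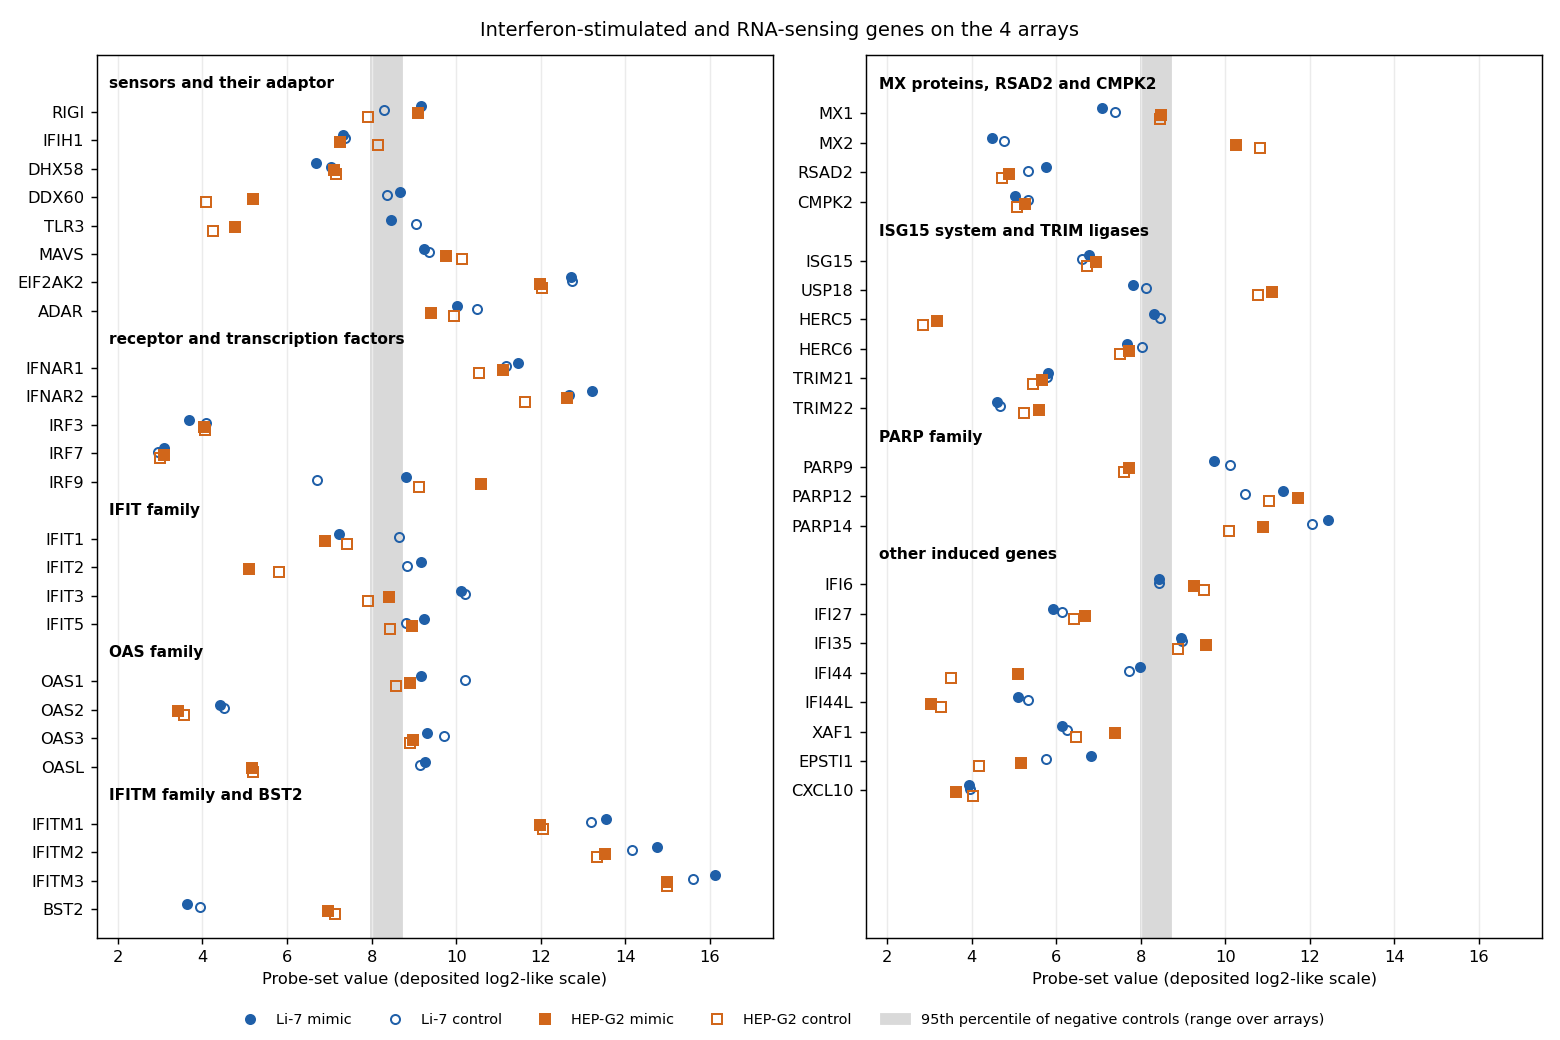
Probe-set values of the 46 measured members on the deposited log2-like scale (horizontal axis), grouped by role. Filled circles stand for the Li-7 mimic array, open circles for Li-7 control, filled squares for HEP-G2 mimic and open squares for HEP-G2 control, and the grey band spans the background limits of the arrays, 7.99 to 8.72. MX2, USP18, HERC5, TLR3 and OASL separate by line, and RIGI and IRF9 have higher mimic than control values within each line.

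No member was called with the mimic. The common test of mimic against control over both lines was limma's treatment coefficient with cell line in the model. It called 0 of 41 higher (all genes 0.0808%) and 0 of 41 lower (all genes 0.339%, and 0.42% in either direction). At an unadjusted p under 0.05 there were 7 higher members (all genes 9.75%) and 1 lower member (all genes 9.71%), together 19.5% of the members and 19.5% of all 12381 genes tested. The median difference, mimic minus control, was -0.041 in Li-7, beside 0.021 for all genes, and 0.216 in HEP-G2, beside 0.018 for all genes. Of the 41, 14 were higher in both lines (all genes 34.1%), 9 were lower in both (all genes 31.0%) and 18 had opposite signs. The test has 1 degree of freedom left for the error of each gene. That part comes from how far the 2 lines disagree and not from a spread between cultures. The moderation by limma draws it towards a variance pooled over all genes. This adds 5.85 prior degrees of freedom and so outweighs the gene's own part.

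In single lines, counted at 2-fold with no test, 2 members were higher with the mimic in Li-7 (IRF9 and EPSTI1, all genes 3.72%) and 2 were lower (IFIT1 and OAS1, all genes 4.12%). In HEP-G2, 5 were higher (IFI44, IRF9, RIGI, DDX60 and EPSTI1, all genes 5.77%) and 0 were lower (all genes 6.28%). IRF9 and EPSTI1 passed 2-fold in both lines, 2 of 41 members (all genes 1.03%), and 0 members did so downwards (all genes 1.76%). Many of these changes touch values under the background limit, where their size is uncertain. EPSTI1, IFI44 and IFIT1 lay under it on all 4 arrays and DDX60 on both HEP-G2 arrays.

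**Figure D2:**
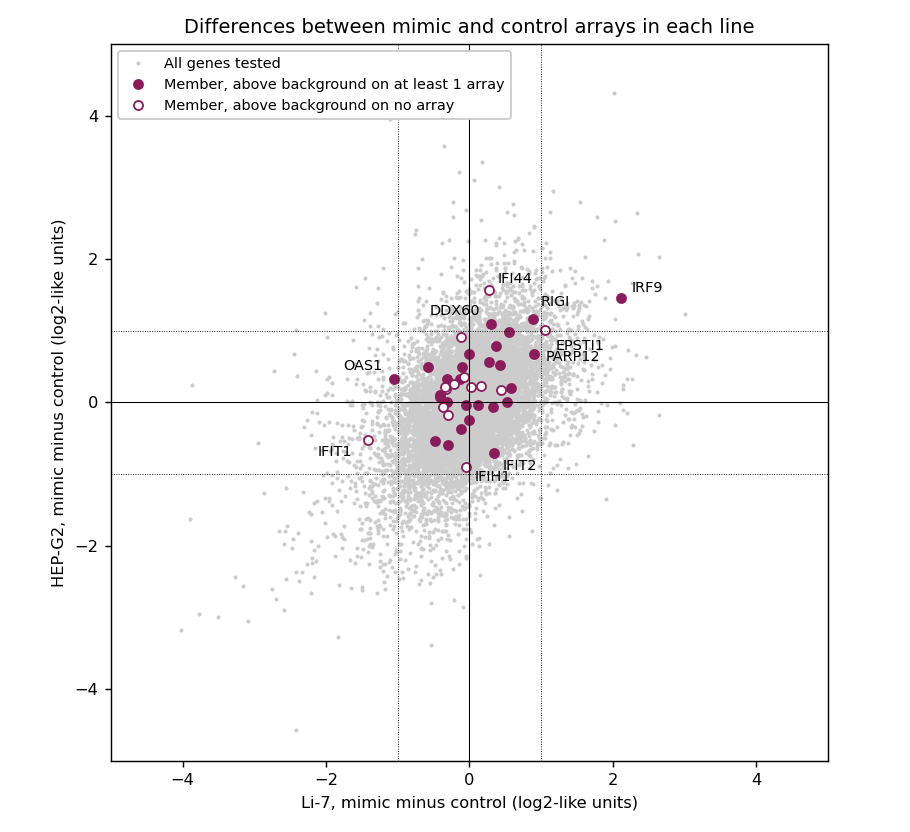
Difference between the mimic and control arrays in Li-7 (horizontal axis) and in HEP-G2 (vertical axis), in log2-like units, for all 12381 genes tested (grey) and the 41 members tested (purple, filled where above background on at least 1 array). Dotted lines mark 2-fold. IRF9 stands farthest towards the upper right among the members, at 2.12 on the Li-7 axis and 1.46 on the HEP-G2 axis, and most members lie near the origin.

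Several members separated the lines. The line coefficient of the same limma fit, Li-7 minus HEP-G2, was called higher in Li-7 for 16 of 41 members (all genes 24.3%) and lower in Li-7 for 7 (all genes 20.7%). That made 56.1% of members, beside 44.9% of all genes tested. Between the control arrays alone, 14 members were at least 2-fold higher in Li-7 (all genes 19.3%) and 6 at least 2-fold lower (all genes 16.6%), with a median difference of 0.549 beside 0.023 for all genes. Members above the limit on both Li-7 arrays and neither HEP-G2 array were TLR3, IFIT2, OASL and PARP9 (4 of 46, all genes 3.25%). MX1, MX2 and USP18 showed the opposite pattern (3 of 46, all genes 3.39%). Here the 2 arrays of a line differ in treatment. The error of a gene is thus how far mimic and control disagree about the line difference. As in the mimic test, the moderated error behind the p values rests more on the variance pooled over all genes. All 23 line calls were lost with an ordinary t statistic in place of the moderated one, which called 0 genes higher and 1 lower in the whole table. Where 1 line lay under the limit on both its arrays and the other above it on both, a fold is given below as a lower bound, with the dim line's values lifted to their arrays' limits. The adjusted p beside such a fold belongs to the difference of the deposited values, without this lift, and is not a test of the lower bound.

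**Figure D3:**
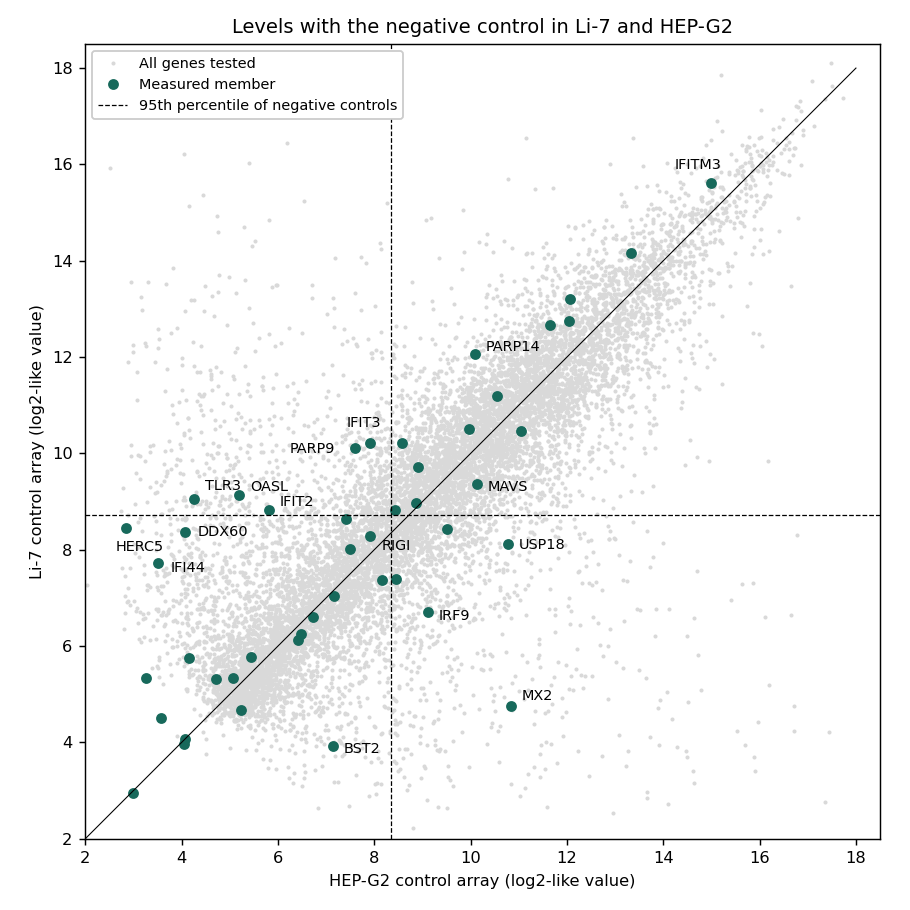
Values on the Li-7 control array (vertical axis) against the HEP-G2 control array (horizontal axis), on the deposited log2-like scale, for all genes tested (grey) and the 46 measured members (green). Dashed lines are the background limits, 8.72 for Li-7 and 8.35 for HEP-G2, and the diagonal marks equal values. HERC5, DDX60, TLR3, OASL and IFIT2 lie far above the diagonal, and MX2, USP18, IRF9 and BST2 far below it.

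Among the cytosolic sensors, RIGI, which encodes the RIG-I helicase, had higher values with the mimic in both lines. It stood at 9.18 with the mimic and 8.29 with the control in Li-7, and at 9.09 with the mimic and 7.92 with the control in HEP-G2. The mimic arrays lay above the background limit and the control arrays under it, so the measured difference corresponds to at least 1.37-fold in Li-7 and at least 1.67-fold in HEP-G2. The mean difference of 1.03 (SE 0.25, 2 lines) did not pass the limma test over all genes (adjusted p = 0.109). Between the lines RIGI did not pass either (difference 0.23, SE 0.25, adjusted p = 0.494).

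IFIH1, the MDA5 helicase that detects long double-stranded RNA, did not share that pattern. Its values were 7.32 with the mimic and 7.37 with the control in Li-7, and 7.26 with the mimic and 8.16 with the control in HEP-G2, all under the limit. DHX58, the LGP2 helicase that tunes both sensors, ranged from 6.68 to 7.16 and also lay under it throughout. DDX60, a helicase described as a cofactor of these sensors, stood at 8.68 with the mimic and 8.37 with the control in Li-7, and at 5.19 with the mimic and 4.08 with the control in HEP-G2. Only the Li-7 mimic value lay above the limit. The line test called DDX60 higher in Li-7 (adjusted p = 5.95e-05), and no fold is given because 1 Li-7 array was under the limit too.

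TLR3, the endosomal receptor for double-stranded RNA, was above the limit in Li-7 only. It stood at 8.47 with the mimic and 9.06 with the control in Li-7, and at 4.76 with the mimic and 4.26 with the control in HEP-G2. Both Li-7 values passed the limit and neither HEP-G2 value did, at least 1.40-fold higher in Li-7 (adjusted p = 6.46e-05). MAVS, the mitochondrial adaptor of RIG-I and MDA5, was above the limit on all arrays. It had 9.23 with the mimic and 9.36 with the control in Li-7, and 9.75 with the mimic and 10.13 with the control in HEP-G2, and passed neither test (adjusted p = 0.631 for the mimic and 0.0739 for the line).

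EIF2AK2, the kinase PKR that halts translation when it binds double-stranded RNA, was nearly the same with and without the mimic. Its values were 12.71 with the mimic and 12.75 with the control in Li-7, and 11.99 with the mimic and 12.04 with the control in HEP-G2. The mean mimic difference was -0.04 (SE 0.24, adjusted p = 0.952). It was 1.64-fold higher in Li-7 than in HEP-G2 (adjusted p = 0.0495), a call lost under 5 of 11 other settings (adjusted p = 0.115 after centring on the median gene). ADAR, which edits adenosine in double-stranded RNA and so hides it from MDA5, stood at 10.02 with the mimic and 10.50 with the control in Li-7. In HEP-G2 it stood at 9.41 with the mimic and 9.96 with the control. These differences of -0.48 and -0.54 ran the same way but did not pass (adjusted p = 0.306).

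Of the receptor and transcription factor genes, IRF9 had the largest mean mimic difference over both lines among the tested members, measured in part against a Li-7 control value under the limit. IRF9 is the DNA-binding part of ISGF3, the complex that carries the interferon signal to the response element. It stood at 8.82 with the mimic and 6.70 with the control in Li-7, and at 10.58 with the mimic and 9.12 with the control in HEP-G2. The mimic array was higher in both lines, by 2.12 and 1.46. In HEP-G2, with both arrays above the limit, this was 2.75-fold. In Li-7, with the control array under the limit, it was at least 1.07-fold. The mean difference of 1.79 (SE 0.27, 2 lines) missed the threshold of the limma test (adjusted p = 0.0595) and passed it under 4 of 11 other settings, where adjusted p ran from 0.0215 to 1. The line test called IRF9 lower in Li-7 than in HEP-G2 (adjusted p = 0.000922).

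Both receptor chains were above the limit on every array and had higher values on the mimic arrays. IFNAR2, the chain that first binds interferon, stood at 13.21 with the mimic and 12.66 with the control in Li-7, and at 12.62 with the mimic and 11.64 with the control in HEP-G2. IFNAR1 stood at 11.46 with the mimic and 11.19 with the control in Li-7, and at 11.12 with the mimic and 10.55 with the control in HEP-G2. Neither difference passed (adjusted p = 0.182 for IFNAR2 and 0.403 for IFNAR1). IFNAR2 was 1.74-fold higher in Li-7 than in HEP-G2 (adjusted p = 0.0406), a call lost under 4 of 11 other settings (adjusted p = 0.0926 after centring). IRF3 and IRF7, the factors that switch on interferon genes, lay between 2.95 and 4.08 on all arrays, under the median negative control probe of the same array. Their probe sets gave no level above background in either line.

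The IFIT genes, whose products bind foreign RNA ends and are among the first induced by interferon, went in different directions. IFIT1 stood at 7.23 with the mimic and 8.64 with the control in Li-7, and at 6.90 with the mimic and 7.42 with the control in HEP-G2. Every one of these values lay under the limit of its array, and the mimic difference did not pass (adjusted p = 0.161). IFIT2 stood at 9.17 with the mimic and 8.83 with the control in Li-7, and at 5.11 with the mimic and 5.82 with the control in HEP-G2. It was at least 1.65-fold higher in Li-7 (adjusted p = 0.000145).

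IFIT3 stood at 10.11 with the mimic and 10.21 with the control in Li-7, and at 8.41 with the mimic and 7.92 with the control in HEP-G2. The Li-7 values lay above both HEP-G2 values, and the line test called it higher in Li-7 (adjusted p = 0.00104). Its HEP-G2 control value lay under the limit, so the size of the difference is uncertain. IFIT5, the family member that stood above the limit on all 4 arrays, had 9.24 with the mimic and 8.82 with the control in Li-7, and 8.96 with the mimic and 8.44 with the control in HEP-G2. It passed neither test (adjusted p = 0.338 for the mimic and 0.316 for the line). The IFIT genes are close relatives, and the share of their probes that could read more than 1 of them was not tested.

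The OAS genes encode enzymes that make the messenger activating RNase L when double-stranded RNA is present. OAS1 stood at 9.17 with the mimic and 10.22 with the control in Li-7, and at 8.90 with the mimic and 8.58 with the control in HEP-G2. The mimic array was thus 2.07-fold lower in Li-7 and 1.25-fold higher in HEP-G2, and the common test did not pass (adjusted p = 0.626). OAS3 had 9.31 with the mimic and 9.72 with the control in Li-7, and 8.98 with the mimic and 8.91 with the control in HEP-G2 (adjusted p = 0.773). OASL, a family member without the synthetic activity, stood at 9.26 with the mimic and 9.14 with the control in Li-7, and at 5.17 with the mimic and 5.20 with the control in HEP-G2. Treatment moved it little in either line, while Li-7 stood at least 1.90-fold above HEP-G2 (adjusted p = 2.56e-05). OAS2 ranged from 3.42 to 4.50 and lay under the limit on every array.

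The IFITM genes, which keep enveloped viruses from fusing with the cell, were bright on all arrays. IFITM3 stood at 16.13 with the mimic and 15.61 with the control in Li-7, and at 14.99 with both in HEP-G2. IFITM2 stood at 14.75 with the mimic and 14.17 with the control in Li-7, and at 13.53 with the mimic and 13.33 with the control in HEP-G2. For IFITM1 the values were 13.54 with the mimic and 13.20 with the control in Li-7, and 11.98 with the mimic and 12.06 with the control in HEP-G2. All 3 were higher in Li-7, 2.55-fold for IFITM1, 2.04-fold for IFITM2 and 1.85-fold for IFITM3 (adjusted p = 0.00493, 0.0154 and 0.0309), with the IFITM3 call lost after centring (adjusted p = 0.0632). None passed the mimic test (adjusted p between 0.451 and 0.825). The 3 genes are close relatives, so their probe sets may read each other's RNA and the values of a single gene are uncertain. BST2, tetherin, which holds budding virus at the cell surface, lay under the limit everywhere, at 3.64 with the mimic and 3.93 with the control in Li-7 and at 6.96 with the mimic and 7.14 with the control in HEP-G2. Its line difference passed the test, lower in Li-7 (adjusted p = 6.37e-05), but no fold is given for values under background.

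The MX genes, dynamin-like GTPases that trap viral components, stood higher in HEP-G2. MX2 had 4.47 with the mimic and 4.76 with the control in Li-7, and 10.24 with the mimic and 10.83 with the control in HEP-G2. It lay under the limit in Li-7 and above it in HEP-G2, at least 4.51-fold higher in HEP-G2 (adjusted p = 5.51e-06). MX1 had 7.08 with the mimic and 7.40 with the control in Li-7, and 8.47 with the mimic and 8.46 with the control in HEP-G2, at least 1.08-fold higher in HEP-G2 (adjusted p = 0.00706). With the mimic neither gene passed (adjusted p = 0.388 for MX2 and 0.784 for MX1). RSAD2, viperin, which makes a chain-terminating nucleotide, and its neighbour CMPK2, a mitochondrial nucleotide kinase, stayed under the limit, between 4.71 and 5.76 on all arrays. RSAD2 was called higher in Li-7 at these dim values (adjusted p = 0.0469). That call was kept under only 3 of 9 other settings and was lost, for example, after centring (adjusted p = 0.105). CMPK2 was not called (adjusted p = 0.938).

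ISG15, a ubiquitin-like modifier that interferon induces strongly in most cells, lay under the background limit on all arrays. It stood at 6.77 with the mimic and 6.60 with the control in Li-7, and at 6.95 with the mimic and 6.72 with the control in HEP-G2. The mean difference was 0.20 (SE 0.24, adjusted p = 0.706). USP18, the protease that removes ISG15 and damps the receptor, stood at 7.82 with the mimic and 8.13 with the control in Li-7, and at 11.11 with the mimic and 10.78 with the control in HEP-G2. It was above the limit in HEP-G2 alone, at least 6.01-fold higher there than in Li-7 (adjusted p = 0.000163). Treatment made no call for it (adjusted p = 0.991).

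HERC5, the main ligase that attaches ISG15, had the opposite pattern. It stood at 8.32 with the mimic and 8.46 with the control in Li-7, and at 3.18 with the mimic and 2.85 with the control in HEP-G2. The line test called it higher in Li-7 (adjusted p = 9.67e-06), but its Li-7 mimic value alone passed the limit, so no fold is given. HERC6, a relative of HERC5, ranged from 7.50 to 8.02 and lay under the limit throughout. TRIM21, an intracellular antibody receptor, and TRIM22, an antiviral ligase, ranged from 4.59 to 5.81, also under it. TRIM22 was called lower in Li-7 (adjusted p = 0.0421). That call was kept under only 4 of 9 other settings and was lost, for example, after cyclic loess (adjusted p = 0.0527).

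The PARP genes of the list belong to the ADP-ribosyltransferase family and are induced by interferon. PARP12, which binds RNA and restricts translation of viral proteins, had higher values with the mimic in both lines. It stood at 11.37 with the mimic and 10.46 with the control in Li-7, and at 11.72 with the mimic and 11.04 with the control in HEP-G2. With all 4 arrays above the limit, this was 1.89-fold for Li-7 and 1.60-fold for HEP-G2, but the mean of 0.80 (SE 0.25) did not pass (adjusted p = 0.162).

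PARP14 stood at 12.43 with the mimic and 12.06 with the control in Li-7, and at 10.88 with the mimic and 10.09 with the control in HEP-G2 (adjusted p = 0.274). It was 3.39-fold higher in Li-7 than in HEP-G2 (adjusted p = 0.0015). PARP9, a partner of the ligase DTX3L, stood at 9.72 with the mimic and 10.12 with the control in Li-7, and at 7.71 with the mimic and 7.60 with the control in HEP-G2. It was at least 3.13-fold higher in Li-7 (adjusted p = 0.000508) and did not pass with the mimic (adjusted p = 0.807).

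Of the remaining induced genes, IFI6, an inhibitor of viral replication at the endoplasmic reticulum, stood at 8.43 with the mimic and 8.44 with the control in Li-7, and at 9.25 with the mimic and 9.50 with the control in HEP-G2. It was lower in Li-7 (difference -0.94, SE 0.25, adjusted p = 0.0197), with the Li-7 control value under the limit. IFI35 was above the limit on all arrays, between 8.87 and 9.54, and passed neither test (adjusted p = 0.558 for the mimic and 0.514 for the line). EPSTI1 had 6.81 with the mimic and 5.76 with the control in Li-7, and 5.17 with the mimic and 4.16 with the control in HEP-G2. Its differences of 1.05 and 1.01 matched closely across the lines, but all values lay under the limit and the mimic test did not pass (adjusted p = 0.106). Its line difference passed, higher in Li-7 (adjusted p = 0.00177).

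IFI44 stood at 7.99 with the mimic and 7.72 with the control in Li-7, and at 5.09 with the mimic and 3.52 with the control in HEP-G2. No array was above the limit, and the mimic test did not pass (adjusted p = 0.218). The line test called it higher in Li-7 (adjusted p = 0.000226). IFI27, IFI44L and XAF1 lay under the limit on all arrays as well, between 3.04 and 7.38. CXCL10, a chemokine that draws T cells and is strongly induced by interferon, ranged from 3.63 to 4.04. None of these genes gave a level above background with or without the mimic.

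The other genes of the pathway were taken from a list of 88 symbols, of which 80 were measured and 62 tested. None passed the mimic test, with 0 of 62 higher (all genes 0.0808%) and 0 of 62 lower (all genes 0.339%). At an unadjusted p under 0.05 there were 9 higher (all genes 9.75%) and 4 lower (all genes 9.71%). Together these were 21.0% of the 62, beside 19.5% of all genes. Their median mean difference was -0.001, beside 0.025 for all genes. All 8 interferon genes measured, among them IFNB1, IFNA2 and IFNL1, lay under the limit on every array, between 2.37 and 5.26. IFNB1 stood at 3.06 with the mimic and 3.45 with the control in Li-7, and at 2.78 with the mimic and 2.96 with the control in HEP-G2.

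The 6 tested genes of this list with the largest mean mimic differences did not pass either. JAK1 and TYK2, the kinases bound to the interferon receptor, had differences of opposite sign. JAK1 stood at 13.57 with the mimic and 12.43 with the control in Li-7, and at 12.53 with the mimic and 11.38 with the control in HEP-G2 (adjusted p = 0.0907). TYK2 stood at 8.01 with the mimic and 9.31 with the control in Li-7, and at 8.90 with the mimic and 9.84 with the control in HEP-G2 (adjusted p = 0.0996). JAK1 was therefore higher on both mimic arrays and TYK2 lower on both, with all 4 arrays above the limit for each gene.

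SP100, a nuclear body protein that silences viral DNA, had 8.95 with the mimic and 7.73 with the control in Li-7, and 8.64 with the mimic and 7.55 with the control in HEP-G2 (adjusted p = 0.0896). Its control values lay under the limit, as did RIGI's. IRF1, a transcription factor of the interferon response, stood at 10.04 with the mimic and 9.08 with the control in Li-7, and at 5.78 with the mimic and 4.84 with the control in HEP-G2 (adjusted p = 0.124). For SLFN11 the mimic minus control difference was -1.50 in Li-7, with -0.33 in HEP-G2 (adjusted p = 0.204), and GBP3, a guanylate-binding protein, by 0.46 and 1.33 (adjusted p = 0.178). IRF1, SLFN11 and GBP3 lay under the limit on both HEP-G2 arrays.

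**Figure D4:**
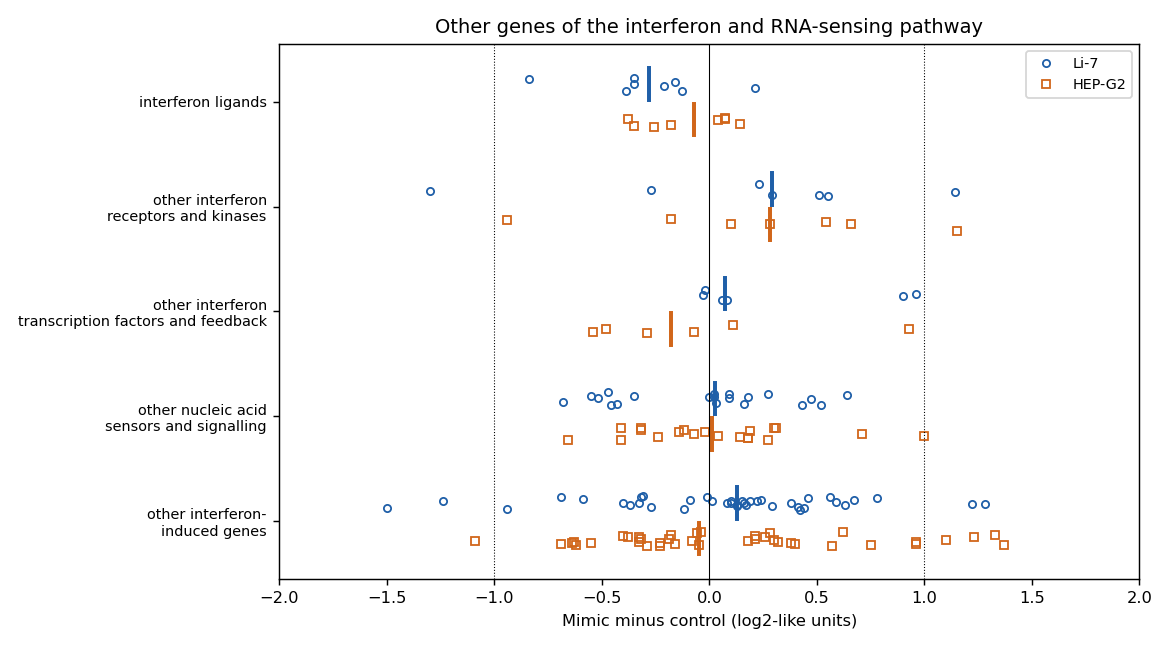
Difference between the mimic and control arrays, in log2-like units (horizontal axis), for the 80 other pathway genes measured, grouped by list (vertical axis). Circles stand for Li-7 and squares for HEP-G2, bars mark the medians over the measured genes, and dotted lines mark 2-fold. Differences in each list spread around 0, between -1.50 and 1.37.

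From the list's sensing and signalling genes, 3 of DNA sensing are named after their values were seen. IFI16, a nuclear DNA sensor, stood at 11.07 with the mimic and 10.43 with the control in Li-7, and at 3.97 with the mimic and 4.05 with the control in HEP-G2. It was at least 5.55-fold higher in Li-7 (adjusted p = 5e-06). STING1, the adaptor of cytosolic DNA sensing, stood at 11.21 with the mimic and 11.63 with the control in Li-7, and at 7.53 with the mimic and 7.35 with the control in HEP-G2, at least 8.83-fold higher in Li-7 (adjusted p = 3.97e-05). CGAS, the DNA-binding enzyme upstream of STING1, lay under the limit on all arrays, at 7.02 with the mimic and 7.49 with the control in Li-7 and at 2.90 with the mimic and 3.21 with the control in HEP-G2. The nucleic acid sensors AIM2, ZBP1 and TLR9 lay under the limit on all arrays and under the filter, and were not tested. Over all 62 tested genes of the list, 27 were called higher and 6 lower in Li-7, together 53.2%, beside 44.9% of all genes.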

How the data were processed

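The members and gene lists were chosen with earlier results of these data known. The authors deposited 1 table for the 4 arrays, with a value per probe set that was read as log2. Per the submitters' processing notes, Affymetrix Expression Console and Transcriptome Analysis Console were used. The sources used here do not give the background correction, normalization, log base or genome build. Values ran from 1.48 to 18.31.

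Of 24351 probe sets, 17709 carried 1 gene name in the platform annotation, 0 several, and 3739 none used here; the rest were controls. All 17709 Entrez identifiers matched RefSeq (GRCh38.p14), and current symbols were used. For 20 of 17687 genes with more than 1 probe set, the one with the highest mean was kept. Testing took the 12381 genes whose mean reached 4.90, the 30th percentile.

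Deposited values were fitted as they stand with limma 3.58.1 under R 4.3.3 (lmFit and eBayes), with cell line and treatment in the model, Benjamini-Hochberg adjustment over all genes and a threshold of 0.05. Moderation added 5.85 prior degrees of freedom. Differences in a single line are of single arrays, with no test. All members could be named. Of other pathway genes, the 6 tested genes with the largest mean difference were named, with the interferons as a group, and any others are said to be chosen after their values were seen. Alternatives are given at the end.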

Additional observations from a re-analysis of the deposited data

Results flagged for a closer look

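For 4 members the mimic difference had opposite signs in the lines and a gap of at least 1 log2-like unit between them. With 1 array per group this difference between the lines was not tested. OAS1 differed by -1.05 in Li-7 and 0.32 in HEP-G2, a gap of -1.37. TLR3 differed by -0.58 in Li-7 and 0.50 in HEP-G2, a gap of -1.08, with both HEP-G2 values under the background limit. IFIT2 differed by 0.34 in Li-7 and -0.71 in HEP-G2, a gap of 1.05, again with both HEP-G2 values under the limit. XAF1 differed by -0.12 in Li-7 and 0.91 in HEP-G2, a gap of -1.03, with all 4 values under it.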

How the results depend on the processing

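Cell line in the model already pairs each mimic array with its control, and the labels carry no replicate numbers for a further pairing. No mimic call among the members was made as deposited, and 1 (IRF9) was made higher after quantile normalization, with a filter at the median gene, with a filter on the background limit and with an intensity trend (1 each, with 0.162%, 1.44%, 0.694% and 1.28% of all genes called higher). Line calls in Li-7 were 16 higher and 7 lower. They were 0 and 0 with an ordinary t statistic (all genes 0 and 1), and 10 higher and 5 lower without treatment in the model (all genes 16.4% and 14.3%). At the median-gene filter, which keeps 27 members, 1 was 2-fold higher with the mimic in Li-7 (all genes 3.47%), 2 in HEP-G2 (6.07%), and 9 between the control arrays (18.8%). The background filter, also leaving 27, gave 1 higher and 1 lower in Li-7 (all genes 4.19% and 4.63%) and 3 higher in HEP-G2 (6.80%), and quantile normalization 1 higher in Li-7 (3.71%). At 1.5-fold, 4 were higher in Li-7 (all genes 12.9%), and 10 higher and 3 lower in HEP-G2 (16.4% and 16.2%). With the 99th percentile of negative controls as limit, 6 members lay above it on the Li-7 mimic (all genes 14.0%), 7 on the Li-7 control (19.9%), 8 on the HEP-G2 mimic (16.9%) and 6 on the HEP-G2 control array (18.1%). With the 90th, 30 did on the Li-7 control array (51.6%). Signs turned only for values near 0, the mimic difference of IFI27 (-0.01 after quantile normalization) and the line difference of CMPK2 (-0.06 after quantile normalization and -0.15 after median centring). The causes were not tested. Median centring moved the median of all genes between the control arrays to -0.135, against 0.023 as deposited, and that of the members to 0.391. Over all genes, mimic calls were 10 higher and 42 lower as deposited, 20 and 67 after quantile normalization, 0 and 0 after cyclic loess, 127 and 239 at the median-gene filter, 59 and 141 with the background filter, 158 and 253 with an intensity trend, 1 and 0 with an ordinary t statistic, and 0 and 0 without cell line. The number of arrays and the background limit restrict what can be seen for the 19 members that passed it on no array.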

Other observations

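Some antigen presentation genes, which interferon also induces, were called higher in Li-7 than in HEP-G2, and others were not. Those named here were chosen after their values were seen. PSMB9, an immunoproteasome subunit, stood at 12.19 with the mimic and 11.99 with the control in Li-7, and at 8.23 with the mimic and 8.41 with the control in HEP-G2. Its line difference was 3.77 (SE 0.25, adjusted p = 3.81e-05, limma with Benjamini-Hochberg adjustment). B2M, the light chain of MHC class I, stood at 16.43 with the mimic and 16.02 with the control in Li-7, and at 14.40 with the mimic and 14.08 with the control in HEP-G2, a line difference of 1.99 (SE 0.24, adjusted p = 0.000667). HLA-C and HLA-E differed by 0.89 and 0.96 (adjusted p = 0.0269 and 0.0207). The transporter genes TAP1 and TAP2 and the immunoproteasome subunit PSMB10 did not pass (line differences 0.87, 0.10 and 0.33, adjusted p = 0.0502, 0.777 and 0.314). None of these genes passed the mimic test (adjusted p between 0.265 and 0.994).

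SLFN11, which stalls replication forks and limits translation of viral messages, lay at 9.51 with the mimic and 11.00 with the control in Li-7, and at 4.07 with the mimic and 4.39 with the control in HEP-G2. It was at least 3.94-fold higher in Li-7 (adjusted p = 1.63e-05).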
